A study of Mus musculus with 8 samples.

Results

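A set of 6 mature miRNAs whose hairpins are released without the nuclear enzyme Drosha was examined in mouse CD8+ T cells of 2 ages. They were taken by name from the deposited miRNA table: mmu-miR-320-3p and mmu-miR-484, from hairpins that are transcribed as short capped RNAs, and mmu-miR-877-5p, mmu-miR-877-3p, mmu-miR-1981-5p and mmu-miR-1981-3p, the 5′ and 3′ arms of 2 hairpins that are spliced introns (mirtrons). They are 6 of the 1978 mature miRNAs in the table, and all 6 had counts in every library. Cells came from the spleens of C57BL/6 mice and were enriched for CD8a with magnetic beads. One group was neonatal, 5 to 7 days old (4 libraries), and the other adult, 12 weeks old (4 libraries). No treatment and no engineered allele is given for either group. Whether the 4 libraries of an age stem from different animals, pools or repeat preparations is not stated in the labels, and each p-value below covers the spread between libraries only, which may be technical.

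Most miRNAs begin as a hairpin within a long primary transcript, from which the Microprocessor (Drosha with its partner Dgcr8) cuts a short hairpin precursor. Dicer then removes the loop in the cytoplasm, and 1 strand is loaded into an Argonaute protein, where its seed (bases 2 to 8) pairs with target mRNAs. Mirtrons bypass the first cut: the spliceosome releases a short intron, its lariat is debranched, and the intron folds into a hairpin that Dicer accepts. In capped hairpins the start of transcription makes the 5′ end of the precursor, which leaves the nucleus with its cap and goes straight to Dicer. Abundance of these miRNAs therefore depends on splicing or transcription of the hairpin and on Dicer and Argonaute, but not on Drosha.

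The mature sequences, credited to RefSeq (GRCm38.p6, the build also called mm10) and found for 5 of the 6 members, are shown to identify the molecules counted and to place the mirtron arms against the intron ends. They are written 5′ to 3′ with the seed in capitals.
mmu-miR-484: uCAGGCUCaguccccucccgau
mmu-miR-877-5p: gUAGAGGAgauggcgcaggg
mmu-miR-877-3p: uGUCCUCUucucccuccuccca
mmu-miR-1981-5p: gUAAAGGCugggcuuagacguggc
mmu-miR-1981-3p: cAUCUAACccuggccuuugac
The 5 seeds all differ, and no other miRNA of the table with a sequence in RefSeq has any of them. Both 5p arms begin with GU, the letters with which most introns start. GC content was 63.6% for miR-484, 65% and 59.1% for the 5p and 3p arms of miR-877, and 58.3% and 52.4% for those of miR-1981. All 5 lie above the median of 47.8% over the 325 tested miRNAs with a GC value. Where the mature sequence was missing, that value was taken from the hairpin.

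Positions were read from the GENCODE M21 annotation of mm10. Mir877 lies at chr17:35960730-35960814 on the minus strand and has the same first and last base as intron 12 of 22 of Abcf1, which codes for a ribosome-associated ATP-binding protein of translation initiation. Mir1981 lies at chr1:184822407-184822488 on the minus strand and has the same first and last base as intron 5 of 7 of Marc2, which codes for a molybdenum enzyme of mitochondria. With exactly these ends, the introns occur in 1 annotated transcript of Abcf1 and in 6 of Marc2. The numbering is that of 1 protein-coding transcript of each gene. The introns are 85 and 82 bases long. Their RNA is shown whole, with the 2 counted arms in capitals.
Mir877: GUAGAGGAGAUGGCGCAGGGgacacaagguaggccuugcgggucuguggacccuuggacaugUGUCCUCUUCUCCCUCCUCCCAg
Mir1981: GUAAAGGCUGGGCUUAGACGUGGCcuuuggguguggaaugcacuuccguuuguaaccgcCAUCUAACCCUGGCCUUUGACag
Both hairpins begin with GU and end with AG, the splice site letters of most introns. Both 5p arms start at base 1 of the intron, that is at the 5′ splice site. miR-877-3p covers bases 63 to 84 and leaves 1 base before the 3′ splice site, and miR-1981-3p covers bases 60 to 80 and leaves 2.

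The capped hairpins lie outside introns of their own strand. Mir320 is intergenic at chr14:70443510-70443591 on the plus strand, and its nearest annotated gene start, 63 bases away, is that of Polr3d, a subunit of RNA polymerase III, on the opposite strand. Mir484 lies at chr16:14159626-14159692 on the plus strand, within the body of Marf1, a gene of the opposite strand. It overlaps an annotated Marf1 exon and lies 359 bases from the nearest Marf1 start. The host and neighbouring mRNAs were not measured here, so no value bears on whether they moved with the miRNAs.

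Libraries held 1281032 to 2606630 counts, and levels are given as CPM (counts scaled to a common library size) after TMM scaling, which sets libraries level on the bulk of miRNAs. On this scale 1 count was worth 0.358 to 0.971 CPM. Differences are given as log2 of neonatal over adult from edgeR's quasi-likelihood test, with Benjamini-Hochberg adjusted p over 375 tested miRNAs. That test returns no standard error (SE). The SE given was derived as the absolute log2 difference over the square root of the test's F statistic. At an adjusted p under 0.05 (called), 237 of the 375 differed (63.2%), with 109 higher (29.1%) and 128 lower (34.1%) in neonatal libraries. The libraries are not alike in make-up: the scaling factors by TMM ranged from 1.16 to 1.3 among neonatal libraries but from 0.788 to 0.812 among adult ones. Scaling by library totals instead raises every log2 difference by a mean of 0.63 and moves the median over all tested miRNAs from -0.05 to 0.58. By totals 186 were higher (49.6%) and 68 lower, so that 73.2% of called miRNAs were higher, against 46% with TMM. Directions below are relative to the TMM scaling, and those that totals change are named. Ligation bias of small RNA kits makes levels of different miRNAs only roughly comparable.

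Of the 6 members, 4 were higher, 1 lower and 1 not called. All 4 mirtron arms were higher in neonatal cells, by 1.85-fold to 3.16-fold. Of the capped hairpins, miR-320-3p was lower in neonatal cells, 1.68-fold, and miR-484 showed no called difference. Since 63.2% of all tested miRNAs were called, 5 of 6 is read as a description of these members and not as particular to them. In 57.3% of tested miRNAs the 2 groups did not overlap, and this was so for 4 of the 6.

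**Figure D1:**
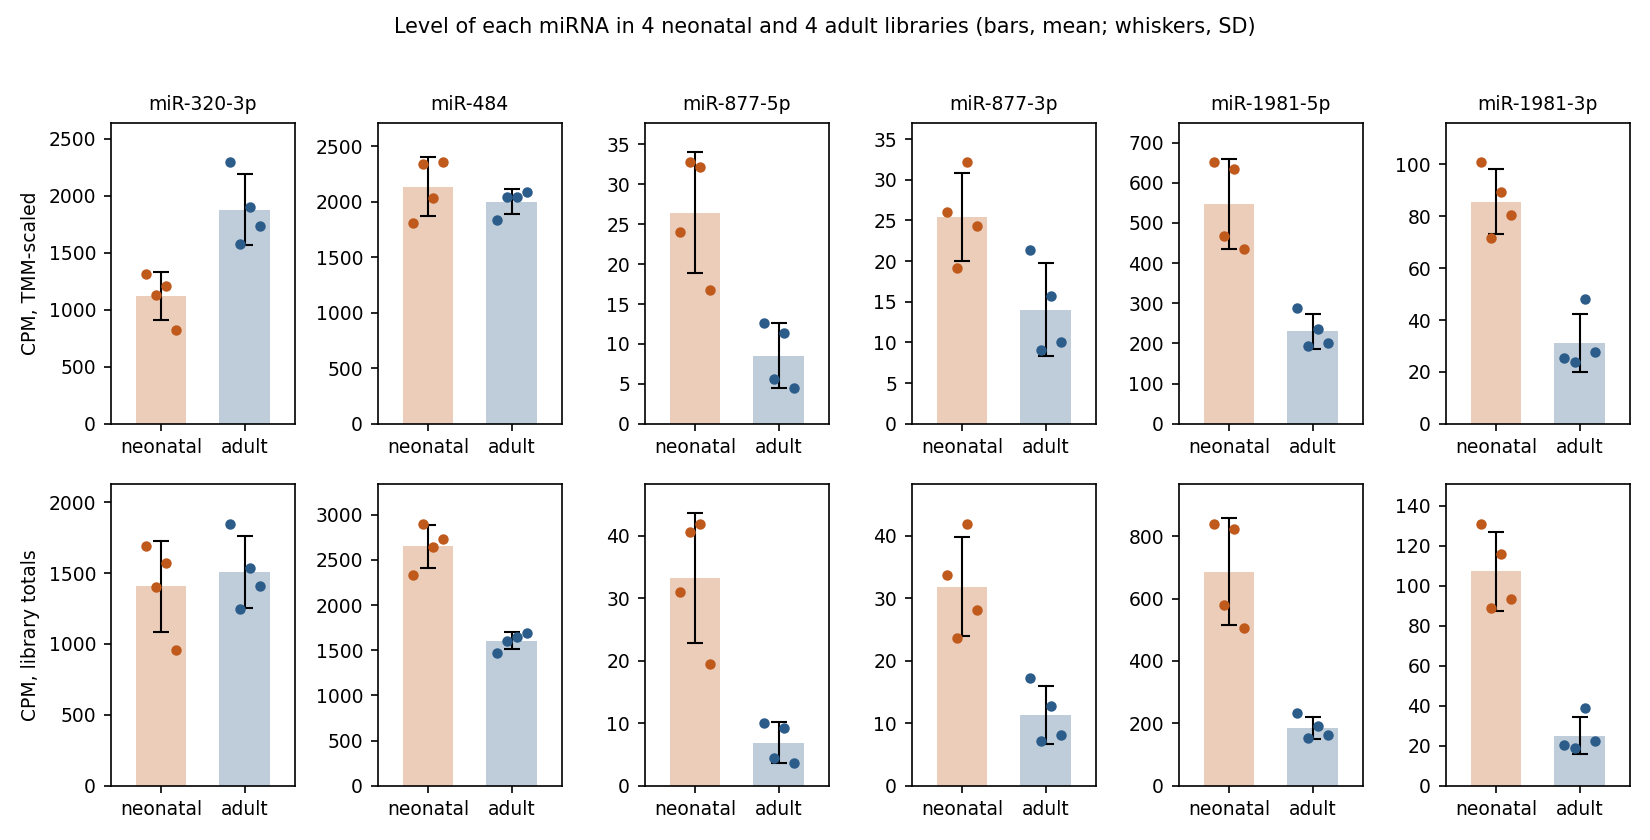
Level of each of the 6 miRNAs in CPM (vertical axes, starting at 0) in the 4 neonatal (orange) and 4 adult (blue) libraries, scaled by TMM (top row) and by library totals (bottom row). Points are libraries, bars means and whiskers SD. The 4 mirtron arms are higher in neonatal libraries in both rows, while miR-320-3p differs in the top row alone and miR-484 separates in the bottom row alone.

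miR-1981-5p was the most abundant mirtron product. Its level was 652, 468, 634 and 436 CPM in neonatal libraries 1 to 4, and 289, 195, 235 and 201 CPM in adult libraries 1 to 4. Every neonatal library was above every adult one. The means were 547 ± 111 and 230 ± 43.5 CPM (SD, n = 4 each), a log2 difference of 1.25 ± 0.19 (SE) or 2.38-fold, with an edgeR adjusted p of 8.6e-05. Each neonatal value rests on 1218 to 1455 counts and each adult value on 278 to 495. By level it was 94th of 375 tested miRNAs in neonatal and 122nd in adult cells.

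The opposite arm of the same intron moved the same way. miR-1981-3p stood at 101, 71.7, 89.3 and 80.5 CPM in neonatal libraries and at 25.2, 23.8, 48.0 and 27.6 CPM in adult ones. The groups did not overlap, although adult library 3 lay well above the other adult libraries. The log2 difference was 1.43 ± 0.25 (2.7-fold), edgeR adjusted p 0.000247, and without adult library 3 it was 1.78. Means were 85.7 ± 12.7 and 31.2 ± 11.3 CPM (SD, n = 4 each).

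miR-877, the Abcf1 intron, was expressed at a lower level, and its arms were more even. miR-877-5p stood at 24.0, 32.8, 32.2 and 16.8 CPM in neonatal libraries and at 12.6, 5.6, 11.4 and 4.52 CPM in adult ones. All neonatal values were above all adult values, but adult libraries held only 13, 8, 24 and 9 counts. Means were 26.5 ± 7.59 and 8.54 ± 4.07 CPM (SD, n = 4 each), a log2 difference of 1.66 ± 0.35 (3.16-fold) with an edgeR adjusted p of 0.00124. It was the largest difference among the members and ranked 40th of 375 from the most positive. Its neonatal counts helped it past the count filter, so the value with no such filter is given too: 1.77, adjusted p 4.06e-07. That fit lowered the adjusted p of every called member (miR-1981-5p, from 8.58e-05 to 1.1e-12), so the smaller p is not stronger evidence.

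miR-877-3p, which carries its own seed, stood at 26.1, 19.1, 32.2 and 24.3 CPM in neonatal libraries and at 21.4, 9.1, 15.7 and 10.0 CPM in adult ones. Adult library 1 was above neonatal library 2, so the groups overlapped. Means were 25.4 ± 5.43 and 14.0 ± 5.68 CPM (SD, n = 4 each), a log2 difference of 0.89 ± 0.29 (1.85-fold) with an edgeR adjusted p of 0.0173. This call was the weakest of the mirtron arms: it was lost without neonatal library 3 (0.77, adjusted p 0.0508) and when GC content entered as an offset (0.55 ± 0.24, adjusted p 0.0627). With that offset and the replicate block together it was called (0.58 ± 0.22, adjusted p 0.0314). By library totals it was 1.52 and the groups did not overlap.

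Enrichment by beads leaves other cells of the spleen in a sample. All tested marker miRNAs of the erythroid, endothelial, stromal and liver lists were higher in neonatal libraries, as the mirtron arms were. Neonatal counts carried the endothelial miR-126a-5p past the count filter (5.87 to 10 CPM in neonatal, 0.971 to 3.5 CPM in adult libraries). Its direction is thus partly set by the filter. Of all tested miRNAs 29.1% were higher (49.6% by library totals). In these bulk libraries fewer cells of a type and less RNA per cell cannot be told apart. Lymphocyte miRNAs (miR-150-5p, miR-342-3p, miR-142a-3p, miR-142a-5p, miR-181a-5p and miR-155-5p) summed to 73321 to 76096 CPM in neonatal and 144662 to 211582 CPM in adult libraries, with 5 of 6 lower in neonatal cells. Most of this sum was miR-150-5p, at 51304 to 57693 CPM in neonatal and 103677 to 184322 CPM in adult libraries. By library totals 3 of 6 were lower and miR-181a-5p was higher, while the calls of the lists that follow were the same. These miRNAs mark lymphocytes in general and do not check the CD8+ identity. Of the erythroid list 3 of 5 were tested and all 3 were higher in neonatal cells (sums of 308 to 775 against 120 to 252 CPM). Of these, miR-486a-5p and miR-486b-5p had nearly the same values (log2 differences of 1.84 and 1.82). They may not be separate readings, and the sum holds both. The untested miR-144-3p overlapped between ages (0.381 to 3.74 against 0.7 to 2.38 CPM), while miR-144-5p did not (1.79 to 7.25 against 0 to 1.51 CPM). Endothelial miRNAs were higher in 2 of 2 (125 to 160 against 46.6 to 77 CPM), stromal in 3 of 3 tested of 4 (113 to 165 against 34.2 to 82.6 CPM), and the liver miRNA miR-122-5p in 1 of 1 (745 to 1591 against 245 to 390 CPM). The myeloid and platelet miR-223 arms were not tested and summed to 3.49 to 8.54 and 2.85 to 9.1 CPM. None of the 20 markers was at 0 in all libraries. The part of such cells, or of RNA from outside the cells, in the mirtron values was not tested.

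miR-320-3p moved the other way from the mirtron arms. It stood at 1314, 1132, 1211 and 826 CPM in neonatal libraries and at 2299, 1581, 1906 and 1732 CPM in adult ones. All adult values were above all neonatal ones. Means were 1121 ± 210 and 1880 ± 309 CPM (SD, n = 4 each), a log2 difference of -0.75 ± 0.18 with an edgeR adjusted p of 0.00232. This call rests on the scaling. By library totals its values were 1693, 1403, 1572 and 956 against 1848, 1246, 1538 and 1406 CPM, the groups overlapped, and the difference was -0.10 ± 0.19 (adjusted p 0.64).

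miR-484, the most abundant member in neonatal cells, was level between the ages on the TMM scale. It stood at 1807, 2342, 2037 and 2358 CPM in neonatal libraries and at 1831, 2039, 2046 and 2085 CPM in adult ones. The groups overlapped widely, with means of 2136 ± 264 and 2000 ± 115 CPM (SD, n = 4 each) and a log2 difference of 0.09 ± 0.14 (edgeR adjusted p 0.567). By totals it was higher in all 4 neonatal libraries (2328, 2901, 2645 and 2729 against 1471, 1606, 1651 and 1693 CPM), by 0.72 ± 0.12 (adjusted p 0.000214). When GC content entered as an offset the sign turned, to -0.32 ± 0.17 (adjusted p 0.12), and with that offset and the replicate block it was called lower (-0.31 ± 0.09, adjusted p 0.00962). The sign of the miR-484 difference thus varied with the setting.

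**Figure D2:**
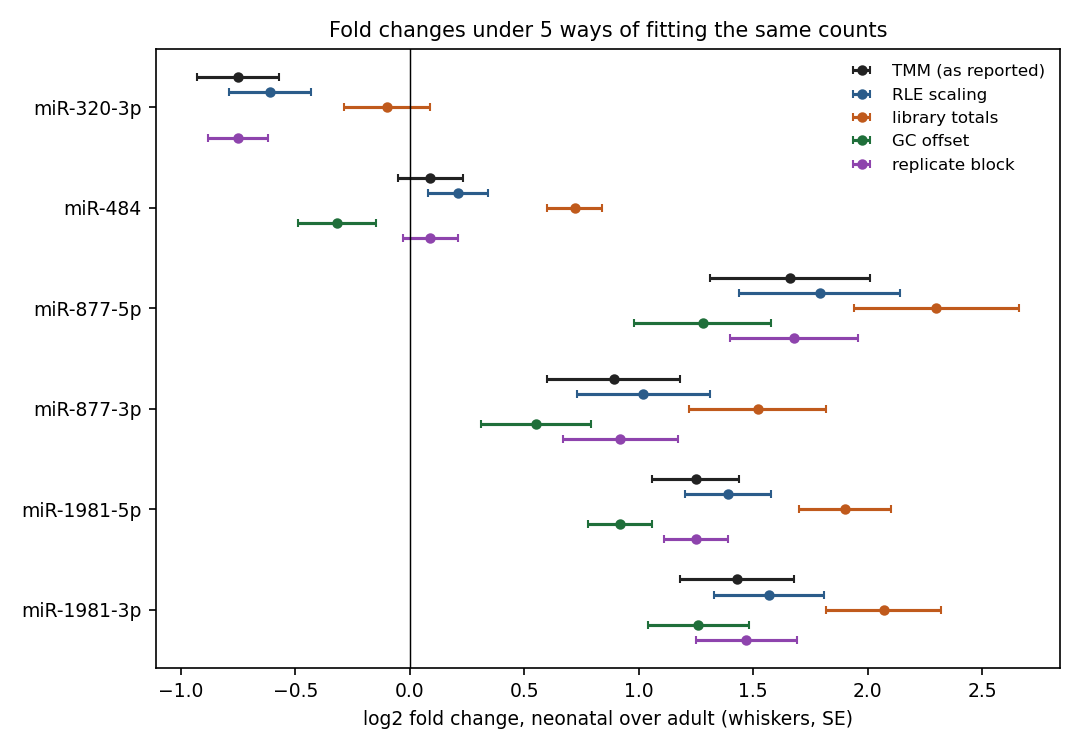
Log2 difference, neonatal over adult (horizontal axis), of each member under 5 fits of the same counts, with SE as whiskers: TMM, RLE scaling, library totals, an offset for GC content and the replicate number as a block. The mirtron arms lie to the right of 0 in every fit shown, while miR-484 lies on both sides, and the GC fit has no value for miR-320-3p.

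miR-484 and miR-320-3p were the abundant members, at 826 CPM or more in every library, with miR-1981-5p at 195 to 652 CPM, and the other arms at 101 CPM or less. In neonatal cells the order of the means was miR-484, miR-320-3p, miR-1981-5p, miR-1981-3p, miR-877-5p and miR-877-3p, and the last pair did not differ beyond their spread (26.5 ± 7.59 and 25.4 ± 5.43 CPM). In adult cells miR-484 and miR-320-3p (2000 ± 115 and 1880 ± 309 CPM) did not differ beyond their spread. The levels of miR-877-3p and miR-877-5p overlapped between adult libraries (14.0 ± 5.68 and 8.54 ± 4.07 CPM), but 3p was above 5p within each of the 4.

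**Figure D3:**
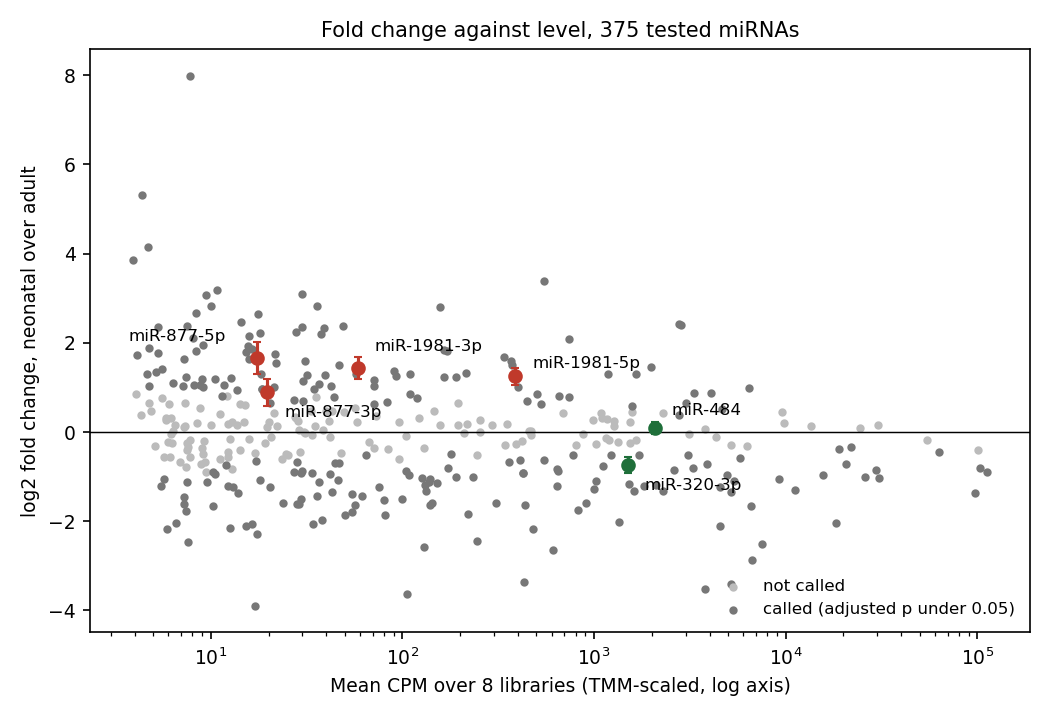
Log2 difference, neonatal over adult, against mean CPM over the 8 libraries (log axis) for all 375 tested miRNAs (dark grey, called; light grey, not called), with the mirtron arms in red and the capped hairpins in green, whiskers SE. The 4 mirtron arms lie between 0.89 and 1.66, within the cloud of called miRNAs, and the capped hairpins at -0.75 and 0.09.

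Ratios of counts within a library do not depend on scaling, and 3 that involve the members, chosen after the values were seen and given with no test, describe the split. The summed counts of the 4 mirtron arms over those of miR-320-3p and miR-484 had log2 ratios of -1.96, -2.55, -2.04 and -2.51 in neonatal and -3.57, -3.96, -3.67 and -3.97 in adult libraries. The groups did not overlap, and the means (-2.27 ± 0.31 and -3.79 ± 0.21, SD, n = 4 each) differed by 1.52. Most of the summed mirtron counts were miR-1981-5p, so this ratio mainly describes that miRNA. In neonatal library 1 it had 1221 counts, against 190 for miR-1981-3p and 45 and 49 for the miR-877 arms. In adult library 1 it had 298, against 26, 13 and 22. The log2 ratio of miR-484 to miR-320-3p was 0.46, 1.05, 0.75 and 1.51 in neonatal and -0.33, 0.37, 0.10 and 0.27 in adult libraries. These groups too were apart, by 0.84 between the means. The third ratio was miR-1981-5p over miR-1839-5p, an abundant miRNA from a small nucleolar RNA. Its means (-2.50 ± 0.48 and -3.79 ± 0.51, SD, n = 4 each) differed by 1.29. The groups were barely apart, with a lowest neonatal value of -3.10 and a highest adult value of -3.17. As a share of all counts, the 6 members held 0.506, 0.504, 0.524 and 0.433% of neonatal and 0.36, 0.304, 0.344 and 0.33% of adult libraries. The shares did not overlap (0.492 ± 0.0401 and 0.334 ± 0.0239%, SD, n = 4 each), but over TMM-scaled totals the difference between the means went from 0.157 to -0.0222 percentage points.

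The arms of each mirtron were compared for a shift in strand use, with the log2 ratio of 5p to 3p counts. Neither strand of the miR-877 hairpin dominated as in miR-1981. The 5p arm held 47.9, 63.2, 50 and 40.9% of the hairpin's counts in neonatal and 37.1, 38.1, 42.1 and 31% in adult libraries. Every adult share was below 50%, and neonatal shares lay on both sides of it. The groups overlapped, as neonatal library 4 was below adult library 3. The log2 ratios were 0.03 ± 0.55 and -0.74 ± 0.27 (SD, n = 4 each), a difference of 0.77 with an exact two-sided permutation p of 0.0571 (0.114 adjusted over the 2 hairpins). Between libraries of equal number the ratio was higher in the neonatal one in 4 of 4 pairs, with an exact sign-flip p of 0.125, the smallest that 4 pairs can give. In miR-1981 the 5p arm dominated at both ages, with 84.4 to 87.7% of counts in neonatal and 83.1 to 92% in adult libraries. Its log2 ratios of 2.66 ± 0.16 and 2.91 ± 0.50 (SD, n = 4 each) differed by -0.25, exact two-sided permutation p 0.371 (0.371 adjusted). It rested on single adult libraries, being -0.46 without adult library 3 and -0.06 without adult library 1. The smallest p that 4 libraries against 4 can give is 0.0286.

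**Figure D4:**
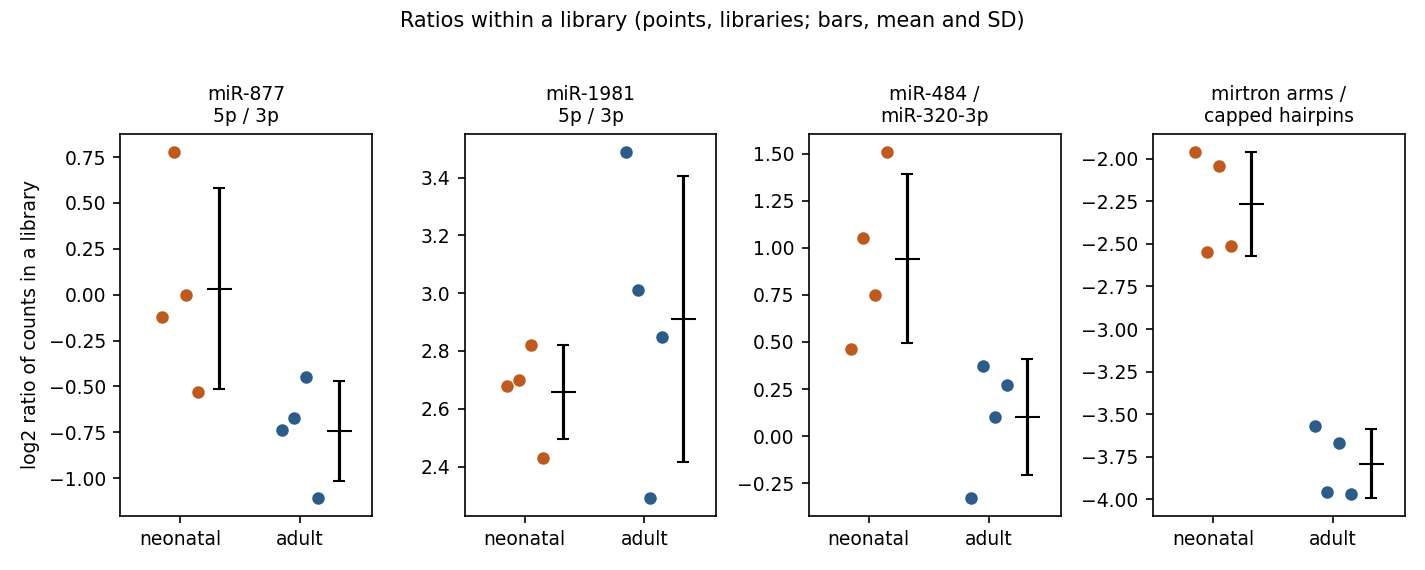
Log2 ratios of counts within a library (vertical axes, each with its own range) for the arms of miR-877 and miR-1981, for miR-484 over miR-320-3p, and for the summed mirtron arms over the summed capped hairpins. Points are the 4 neonatal (orange) and 4 adult (blue) libraries, and the bars give mean and SD. The arm ratios overlap between ages and the other 2 ratios do not.

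A list of 14 other miRNAs known from the literature for variant processing was read beside the members. Of these, 4 passed the count filter, with 10 at 3 counts or fewer in every library. On the TMM scale 1 of the 4 was called higher and none lower, against 29.1% higher and 34.1% lower among all tested miRNAs. The called one was miR-451a, an erythroid miRNA that is cut by Drosha and matured by Argonaute 2 without Dicer: 45.9 ± 6.84 CPM in neonatal and 23.5 ± 4.52 CPM in adult cells (SD, n = 4 each), log2 difference 0.97 ± 0.22, edgeR adjusted p 0.00161. miR-1839-5p, from a small nucleolar RNA, stood at 3075 ± 459 and 3176 ± 546 CPM (SD, n = 4 each), a log2 difference of -0.05 ± 0.16 (adjusted p 0.808). Its partner arm miR-1839-3p was at 0.22 ± 0.29 (adjusted p 0.517). Library totals call all 4 higher, against 49.6% of all tested miRNAs. The differences by totals were 1.61 for miR-451a, 0.58 for miR-1839-5p, 0.85 for miR-1839-3p and 1.08 for miR-1982-3p. miR-320-5p, the opposite arm of the capped miR-320 hairpin, had 1 count in all 8 libraries together, against 2259 to 4010 counts of miR-320-3p per library.

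A position rule for mirtrons, which both mirtron hairpins above meet (both hairpin ends within 10 bases of the ends of 1 intron) was applied to every mature miRNA with a GENCODE hairpin, 1848 in all, to see whether other mirtrons behaved alike. It found 56 mature miRNAs of 27 hairpins, in introns of 67 to 137 bases. Only 24 of the 56 had a count in any library and 6 were tested, of which 4 are the mirtron arms described above. The other 2 were not called on the TMM scale. miR-1982-3p, from an intron of Oaz1, which codes for an inhibitor of polyamine synthesis, had 7, 17, 16 and 15 counts in neonatal and 5, 5, 14 and 3 in adult libraries, a log2 difference of 0.46 ± 0.43 (edgeR adjusted p 0.358). miR-7058-5p, from an intron of Lat, which codes for an adaptor of T cell receptor signalling, had 21, 26, 31 and 21 counts in neonatal and 12, 12, 24 and 13 in adult libraries, a difference of 0.16 ± 0.30 (adjusted p 0.665). In both the groups overlapped on the TMM scale, while library totals called both higher (1.08 and 0.79, adjusted p 0.0402 and 0.0394). Of the 50 untested, 32 were at 0 in all libraries and none had over 10 counts in a library. On the TMM scale the called mirtrons thus came from 2 hairpins. The other 2 tested miRNAs came from a hairpin each, and the rest of the 27 hairpins had no tested arm. Of 440 mature miRNAs with only 1 hairpin end near an intron end (tailed), 16 were tested, 7 were higher and 1 lower in neonatal cells, with a median log2 difference of 0.53. Of those near no intron end 333 were tested, 90 were higher and 121 lower, with a median of -0.10. Among all 375 tested miRNAs 29.1% were higher and 34.1% lower. These class values are on the TMM scale, and the classes were not tested against each other. Most tailed miRNAs were too low to test, so the 16 need not stand for the 440.

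For each member the 3 tested miRNAs with the most similar log2 CPM over the 8 libraries were listed (Pearson r, n = 8). The 8 points share the age groups and the library scaling, so r carries any age difference and is given with no test. Closest to miR-1981-5p were miR-543-3p (0.992), the liver miRNA miR-122-5p (0.989) and miR-451a (0.986). miR-1981-3p was closest to miR-505-5p (0.987), miR-351-5p (0.946) and miR-298-5p (0.946). For miR-877-5p they were miR-211-3p (0.984), miR-127-3p (0.961) and miR-433-3p (0.951), and for miR-877-3p, miR-7661-3p (0.975), miR-181a-2-3p (0.948) and miR-365-3p (0.942). All 12 of these neighbours were called higher in neonatal cells, by TMM and by library totals. Among all tested miRNAs 29.1% were higher by TMM and 49.6% by totals. Neonatal counts helped miR-505-5p (means of 19.6 and 1.86 CPM in neonatal and adult cells) and miR-433-3p (6.26 and 1.98 CPM) past the count filter. Neighbours picked by r with a member that is higher tend to be higher too, so the calls of these neighbours are no separate result.

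The capped hairpins had other neighbours. miR-320-3p was closest to let-7e-5p (0.963), miR-28a-3p (0.963) and miR-1949 (0.956), all called lower in neonatal cells, with log2 differences of -0.77 to -0.92. miR-484 was closest to miR-181a-5p (0.892), miR-322-5p (0.837) and miR-20a-5p (0.830), none of them called. By library totals the first 3 were not called and the other 3 were higher. These calls too follow in part from the choice by r. Among the members, r between mirtron arms was 0.789 to 0.922, and between miR-320-3p and each mirtron arm -0.434 to -0.743. The r of miR-484 with the mirtron arms was -0.088 to 0.224, and with miR-320-3p -0.666.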

How the data were processed

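Values as deposited were raw estimated counts, with a row for each pair of mature miRNA and precursor. The genome build was mm10, per the submitters' processing notes, while the tools for alignment and counting were not given in the sources used here. Among non-zero values, 71.4% were whole to within 0.001. Values were summed over precursors and rounded to whole numbers. Each member had 1 precursor row.

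miRNAs past edgeR's filterByExpr (minimum count 10) were tested with the quasi-likelihood F test of edgeR 4.0.16 (R 4.3.3), TMM scaling, robust dispersion (biological coefficient of variation 21.4%), age group as the only term and the Benjamini-Hochberg method at 0.05. The procedure was tried on simulated counts with equal numbers of raised and lowered miRNAs. That trial does not bear on the choice between TMM and library totals. Arm ratios were log2 of (5p count + 0.5) over (3p count + 0.5), with exact permutation tests over the 70 divisions of 8 libraries. A count of 0 allows up to 3 counts, or 1.07 to 2.91 CPM on the TMM scale, for counting error alone, as PCR copies could not be told from molecules.

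Both groups carry replicate numbers 1 to 4, whose meaning the labels do not give. Libraries with equal numbers deviated together from their group means (r = 0.256 to 0.415 over the 4 pairs), which is above 0.1 in each, and were taken as pairs for an alternative fit. Unlike numbers reached 0.482.

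The members, lists, tests and naming rule were chosen with earlier results of these data known. Named are the members, related miRNAs past the filter, for each member the 3 miRNAs most alike, and markers. The other 2 position-defined mirtrons were named after their values were seen. A planned test of the summed share is not printed, since a sum over chosen members supports no p-value. Alternatives were RLE scaling, library totals, no filter, at least 10 CPM in 4 libraries, DESeq2 1.42.0, the replicate block, an offset for GC content with and without the block, leaving out the 10 most abundant miRNAs, and leaving out each library. GC content was that of the mature sequence, or was taken from the hairpin where the mature sequence was missing. The GC offset was not run for miR-320-3p.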

Additional observations from a re-analysis of the deposited data

Results flagged for a closer look

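miR-1981-3p in adult library 3 stood at 48.0 CPM (101 counts), apart from 23.8 to 27.6 CPM in the other adult libraries. Its gap to the nearest library was 0.843 of the adult range, above Dixon's 95% critical value for 4 libraries. Of 24 sets of 4 libraries examined (each member and ratio in each age group), this was the 1 that passed, and chance flags about 1 in 20.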

How the results depend on the processing

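Under all 17 alternatives the log2 differences of miR-877-5p (1.28 to 2.30), miR-1981-5p (0.91 to 1.90) and miR-1981-3p (1.26 to 2.07) stayed called and positive. With library totals miR-320-3p went to -0.10 and was no longer called, so that 0 members were called lower, and miR-484 went to 0.72 and was called. With the GC offset miR-484 reversed to -0.32, and to -0.31 with the replicate block added. miR-877-3p was 0.55 and not called with the GC offset, and 0.77 to 1.10 when each library was left out, losing its call without neonatal library 3. The members' share of counts changed by -0.0222 percentage points with TMM-scaled totals and by 0.364 without the 10 most abundant miRNAs. The reason for these shifts was not tested. In the paired fit with the replicate block 265 miRNAs were called against 237, with member values of -0.75 (miR-320-3p), 0.09 (miR-484), 1.68 and 0.92 (miR-877 arms), 1.25 and 1.47 (miR-1981 arms), and no member's call changed. Over all alternatives 213 to 287 miRNAs were called. Depth limits the miR-877 arms (8 to 33 adult counts) and nearly all other mirtrons, of which 50 of 52 were too low to test.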
